A study of Mus musculus with 21 samples.

Results

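The expression of 10 claudin genes (Cldn1, Cldn2, Cldn3, Cldn4, Cldn5, Cldn6, Cldn7, Cldn8, Cldn15 and Cldn23) was measured in small intestines taken from mouse embryos at E18.5. The genes were taken by symbol, and every probe that the array's annotation assigns to one of them was used: 14 of 45281 probes, for 10 of 19057 named genes. RNA from 21 intestines was read on Illumina WG6_V2 bead arrays, on which a probe's brightness stands for the level of its transcript. The study compared labelled controls (titled Prdm1+/+, genotype Prdm1CA/+, n = 11) with labelled mutants (titled Prdm1-/-, genotype Villin-Cre, Prdm1CA/BEH, n = 10), both of mixed strain and called controls and mutants below, by their labels. All embryos had a Prdm1 CA/CA mother that carried R26R, so both groups, the controls titled Prdm1+/+ included, hold 1 CA allele and may hold R26R. In the mutants Villin-Cre, which acts in intestinal epithelium, meets the CA allele, while BEH, the other Prdm1 allele, is present in every cell. The transgene and BEH are named for the mutants alone, so effects of Cre, of BEH and of the loss of CA cannot be told apart. The arrays read whole tissue, in which fewer cells of a type and less RNA per cell cannot be told apart.

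Claudins are small membrane proteins that form the strands of the tight junction, the seal near the lumen side of an epithelium. Some claudins, such as Cldn2 and Cldn15 in the intestine, make pores that let cations and water pass between cells. Others, such as Cldn1, Cldn3 and Cldn4, are known mainly as barrier claudins that tighten the seal. Prdm1 (Blimp1) is a transcriptional repressor known in mouse intestine for holding back the adult enterocyte programme before weaning.

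Of the 10 claudins, 9 could be tested and 5 differed between the groups. Cldn3, Cldn15 and Cldn23 were higher in the labelled mutants, and Cldn1 and Cldn2 were lower. Cldn4, Cldn5, Cldn6 and Cldn7 did not pass the test, and Cldn8 was not detected. A difference was called at a limma adjusted p under 0.05, with adjustment over all 16641 probes detected on at least 5 arrays, where detection means a detection p-value under 0.01. By that call 23.2% of the 9961 tested genes differed in either direction, 10.6% higher and 12.6% lower, against 3 higher and 2 lower of the 9 tested claudins. The median difference, mutant minus control, was 0.088 on the log2 scale over the 9 claudins and 0.0115 over all tested genes. Values below are normalised log2 intensities or differences of them, unless given as folds, raw intensities or summed intensities. Summed intensities add the normalised values of a list's tested genes on the linear scale. A probe's intensity depends on its sequence, so levels of different claudins were not ranked against each other.

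The sequences just upstream of 5 claudin genes are shown because they belong to the claudins that passed the test and have an entry, and to Cldn4, which neighbours Cldn3. They are RefSeq promoter windows of build GRCm38.p6, from 250 bases before to 50 bases after the annotated start. The windows are Cldn1 chr16:26371790-26372089 on the minus strand, Cldn2 chrX:139800558-139800857 on the plus strand, Cldn3 chr5:134985964-134986263 on the plus strand, Cldn4 chr5:134946885-134947184 on the minus strand and Cldn15 chr5:136967619-136967918 on the plus strand. Capitals mark matches, on either strand, to any of 4 motifs: GTGAAAG (a Prdm1-type core), CAGGTG (a Snail-type E-box), GGGCGG (a GC box) and TTTATG (a Cdx-type site).
Cldn1: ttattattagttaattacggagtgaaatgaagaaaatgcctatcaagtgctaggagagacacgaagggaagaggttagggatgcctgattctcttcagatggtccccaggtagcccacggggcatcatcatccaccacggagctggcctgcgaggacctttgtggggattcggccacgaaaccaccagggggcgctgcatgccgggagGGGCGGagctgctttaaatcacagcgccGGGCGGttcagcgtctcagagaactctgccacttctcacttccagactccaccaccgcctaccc
Cldn2: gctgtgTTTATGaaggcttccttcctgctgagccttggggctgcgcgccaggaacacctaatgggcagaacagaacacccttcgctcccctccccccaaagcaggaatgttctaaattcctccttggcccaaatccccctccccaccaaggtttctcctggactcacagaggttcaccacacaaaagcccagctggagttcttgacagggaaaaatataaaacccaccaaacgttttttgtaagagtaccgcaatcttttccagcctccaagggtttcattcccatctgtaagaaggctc
Cldn3: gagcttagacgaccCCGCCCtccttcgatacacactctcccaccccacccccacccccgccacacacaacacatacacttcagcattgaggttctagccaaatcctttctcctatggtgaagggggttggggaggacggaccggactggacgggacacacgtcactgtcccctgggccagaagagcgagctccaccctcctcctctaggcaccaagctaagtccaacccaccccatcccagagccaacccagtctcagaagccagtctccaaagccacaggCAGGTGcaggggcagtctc
Cldn4: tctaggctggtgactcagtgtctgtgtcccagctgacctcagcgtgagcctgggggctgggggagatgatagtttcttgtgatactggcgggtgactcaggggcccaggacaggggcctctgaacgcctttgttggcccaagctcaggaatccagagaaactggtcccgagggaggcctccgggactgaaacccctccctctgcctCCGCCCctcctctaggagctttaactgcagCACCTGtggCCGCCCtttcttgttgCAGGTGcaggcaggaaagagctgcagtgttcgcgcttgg
Cldn15: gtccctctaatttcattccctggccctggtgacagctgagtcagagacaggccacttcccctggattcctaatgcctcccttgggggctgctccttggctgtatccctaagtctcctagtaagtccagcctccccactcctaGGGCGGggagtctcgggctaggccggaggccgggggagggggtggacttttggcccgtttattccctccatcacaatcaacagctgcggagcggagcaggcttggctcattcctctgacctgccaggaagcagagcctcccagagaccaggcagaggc
No window of the 8 claudins with an entry held GTGAAAG, which 4.24% of all 32851 promoter windows hold. GGGCGG, found in 35.66% of all windows, had 2 matches each in Cldn1 and Cldn4 and 1 each in Cldn3 and Cldn15. CAGGTG, found in 20.21% of all windows, had 2 matches in Cldn4, at 14 bases before and 12 bases after the start on opposite strands, and 1 in Cldn3 at 32 bases after it. TTTATG, found in 11.85% of all windows, had 1 match, in Cldn2 at 244 bases before the start. In the unprinted windows, Cldn6 and 1 of the 2 starts of Cldn7 held 2 matches each to CAGGTG, and GGGCGG had 2 matches in Cldn6, 1 in Cldn5 and 1 at that start of Cldn7. These matches describe the letters only. In the RefSeq gene order of the same build, Cldn4 and Cldn3 lie next to each other on chromosome 5, which also carries Cldn15, while Cldn1 lies beside Cldn16 on chromosome 16 and Cldn6 beside Cldn9 on chromosome 17.

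The targeted gene and the libraries were looked at before the claudins. The Prdm1 probe was detected in 0 of 11 labelled controls and in all 10 labelled mutants, at least 7.31-fold higher (limma adjusted p 1.64e-12). No source used here places this probe against the deleted exons, so its level is no check on the labels, from which every direction below is taken. Sis, the brush border sucrase-isomaltase, rose by 6.62 ± 0.12 (SE). Between 14596 and 16085 probes were detected per array. In 6 labelled mutants, and in no other library, Hoxd10 and Car1 of the list of colon markers were detected, while Hoxd11, Hoxd12 and Hoxb13 were not detected on any array. Detection of other genes of that list was not confined to these 6 libraries: Slc26a3 and Aqp8 were detected on all 21 arrays and Hoxa13 on 17. Aqp8 was lower in the mutants by a difference of -1.58 (adjusted p 9.19e-08). The levels of Slc26a3, Aqp8 and Hoxa13 were not compared between the 6 libraries and the other mutants. The first principal component of the values, after each group's mean was subtracted, held 32.34% of the variance and divided the arrays into a set of 10 (6 controls, 4 mutants) and a set of 11 (5 controls, 6 mutants). The labels name no batch, and this division was found in the data. Where leaving out the 6 libraries or staying within 1 set of arrays ended the call of a claudin or a tight junction gene, the value of the probe that stands for it is given beside the result.

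Among the pore-forming claudins, Cldn15 rose and Cldn2 fell. Cldn15 was read by 3 probes. Its brightest probe ran from 9.07 to 10.35 in the controls, with a median of 9.80, and from 9.80 to 10.97 in the mutants, with a median of 10.30. The groups overlapped, with 9 of 10 mutants above the control median. The mean rose from 9.84 ± 0.34 (SD, n = 11) to 10.34 ± 0.36 (SD, n = 10), a difference of 0.51 ± 0.14 (SE), which is 1.42-fold (limma adjusted p 0.0135). The second probe rose by 0.59 ± 0.10 (adjusted p 9.96e-05), and all 10 mutants lay above its control median. The dimmest probe rose by 0.55 ± 0.11 (adjusted p 0.000462). It was detected in 5 of 11 controls and in all 10 mutants. With this processing all 3 probes of Cldn15 thus gave differences between 0.51 and 0.59. The size for the dimmest probe depended on the processing. It was 0.27 with no background correction and 0.80 with the deposited processed values, where the brightest probe gave 0.49 and 0.50. The brightest probe missed the threshold within the set of 10 arrays (0.51, adjusted p 0.0949), within the set of 11 (0.43, adjusted p 0.182) and with median scaling between arrays (0.42, adjusted p 0.0509). The other 2 probes passed in each of these settings.

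Cldn2 was read by 2 probes, and both were detected on every array. The brighter probe ran from 11.32 to 11.92 in the controls, with a median of 11.51, and from 11.09 to 11.64 in the mutants, with a median of 11.27. The ranges overlapped, and 9 of 10 mutants were under the control median. The mean went from 11.57 ± 0.20 to 11.30 ± 0.16 (SD), a difference of -0.27 ± 0.08 (SE), or 1.21-fold lower (limma adjusted p 0.0178). The other probe gave -0.33 ± 0.08 (adjusted p 0.00441), with all 10 mutants under its control median. Without the 6 libraries with Hoxd10 and Car1 neither probe passed, at -0.23 (adjusted p 0.206) and -0.25 (adjusted p 0.143). The part of those libraries in the fall was not tested further. Within the set of 10 arrays the brighter probe gave -0.21 (adjusted p 0.108), while the other probe passed at -0.31 (adjusted p 0.0444). Within the set of 11 neither passed, the brighter probe at -0.37 (adjusted p 0.0619) and the other also at -0.37 (adjusted p 0.081).

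**Figure D1:**
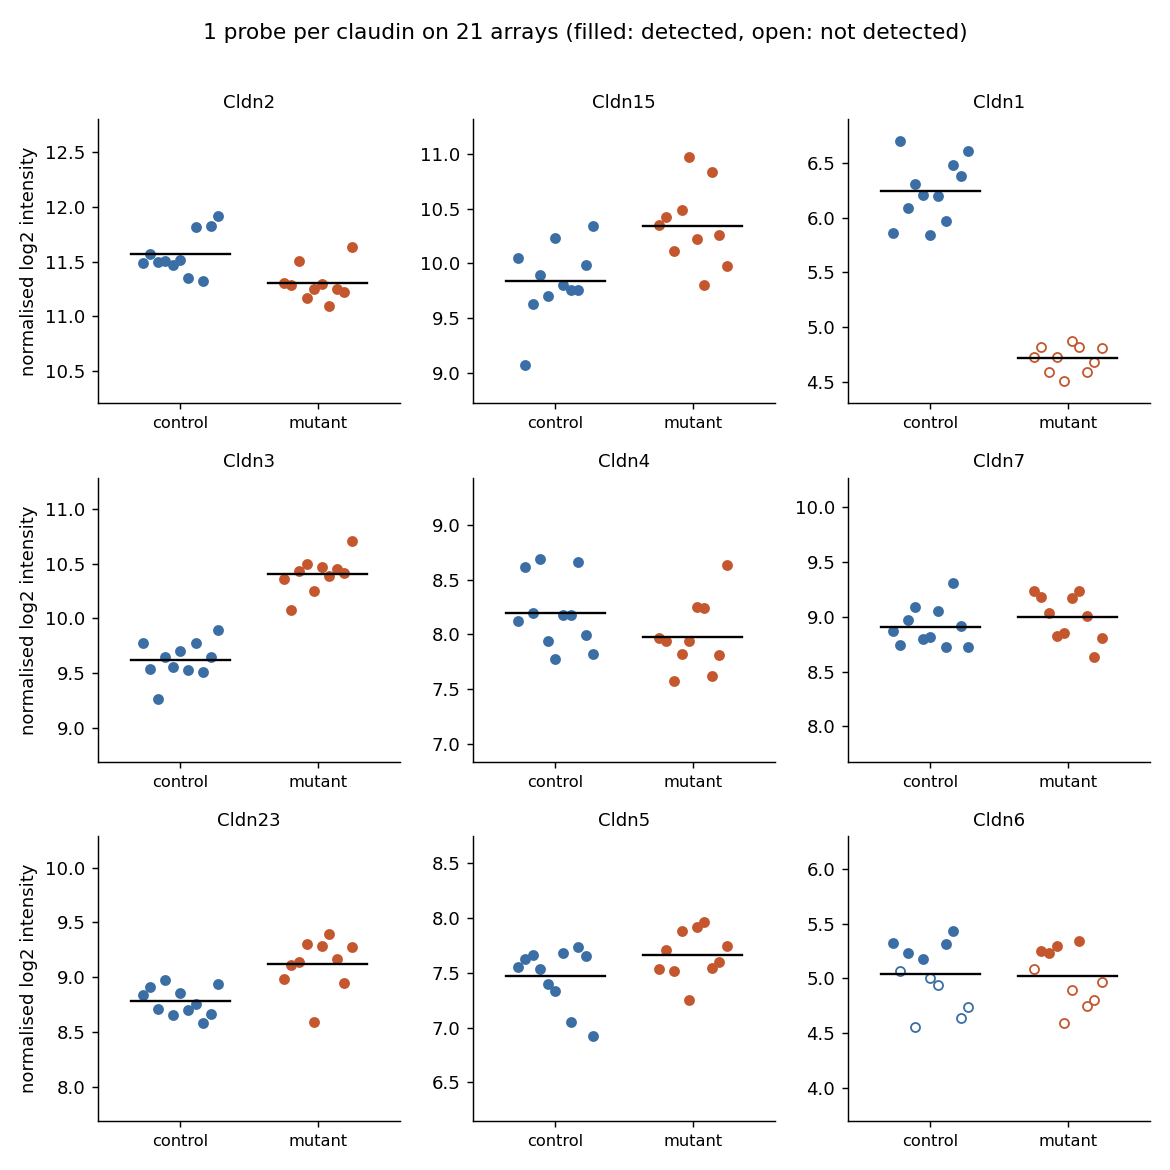
Normalised log2 intensity of the probe that stands for each of the 9 tested claudins, 1 point per array, with control (n = 11) and mutant (n = 10) labels on the horizontal axis and a line at each group's mean. Every vertical axis spans the same length. Filled points are detected and open points are not. The groups are apart for Cldn1, which is open in all 10 mutants, and for Cldn3, and they overlap in the other panels.

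Cldn1 fell from a detected level to one below detection. The gene encodes a barrier claudin best known for the water barrier of the epidermis. Its 1 probe ran from 5.84 to 6.70 in the controls, with a median of 6.21, and was detected in all 11. In the mutants it ran from 4.51 to 4.87, with a median of 4.73, and was detected in 0 of 10, with a lowest detection p-value of 0.0353. In raw intensity the controls ran from 92.4 to 175 and the mutants from 57.8 to 90.2. The groups did not overlap on either scale. Since the probe did not reach the detection threshold in the mutants, the difference is a bound. Cldn1 was at least 2.17-fold lower, where the mutant side is set at each array's lowest detected signal. The measured means were 6.24 ± 0.29 and 4.71 ± 0.12 (SD), a difference of -1.53 ± 0.10 (SE) with a limma adjusted p of 3.83e-11 and a two-sided permutation p of 1e-05, the smallest that 100000 draws can give. The difference was -0.80 with no background correction, which leaves the background of dim probes in both groups.

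The fall of Cldn1 was as large without the 6 libraries with Hoxd10 and Car1, at -1.57 (adjusted p 1.6e-06). It was -1.43 within the set of 10 arrays (adjusted p 5.53e-05) and -1.59 within the set of 11 (adjusted p 3.99e-06). The 6 mutants with Hoxd10 and Car1 ran from 4.59 to 4.87 and the other 4 from 4.51 to 4.82, so both lay below every control.

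Cldn3 rose, with no overlap between the groups. The gene encodes a barrier claudin of gut epithelium that is known, like Cldn4, as a receptor for an enterotoxin of Clostridium perfringens. Its probe ran from 9.26 to 9.90 in the controls, with a median of 9.64, and from 10.08 to 10.71 in the mutants, with a median of 10.42. All 10 mutants were above every control. The mean went from 9.62 ± 0.17 to 10.40 ± 0.16 (SD), a difference of 0.78 ± 0.08 (SE), or 1.72-fold (limma adjusted p 3.71e-08, permutation p 1e-05). Cldn1 and Cldn3 were the 2 claudins of 9 whose groups did not overlap. Among all tested genes 4.4% had groups without overlap, 1.85% with the mutants higher and 2.55% with the mutants lower. The rise of Cldn3 was 0.66 without the libraries with Hoxd10 and Car1 (adjusted p 0.000265). The 4 mutants without those markers ran from 10.08 to 10.43, and the 6 with them from 10.38 to 10.71. Within the sets of 10 and 11 arrays the rise was 0.80 (adjusted p 0.000584) and 0.73 (adjusted p 0.000198).

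Cldn4, the chromosomal neighbour of Cldn3, did not pass the test. Its probe ran from 7.78 to 8.69 in the controls, with a median of 8.18, and from 7.57 to 8.63 in the mutants, with a median of 7.94. The ranges almost coincided. The difference was -0.22 ± 0.13 (SE; 95% confidence interval -0.50 to 0.06, limma adjusted p 0.29). Whether the neighbours differed in their response was tested on the log2 ratio of Cldn3 to Cldn4 within each array, whose level has no meaning across probes but whose change has. That ratio rose by 1.00 from controls to mutants (two-sided permutation p 2e-05, Benjamini-Hochberg 3e-05 over 3 pairs). It ran from 0.85 to 2.08 in the controls and from 2.08 to 2.86 in the mutants, so that the ranges only just overlapped. For the pore-forming pair, the ratio of Cldn15 to Cldn2 rose by 0.77 (permutation p 0.00014, Benjamini-Hochberg 0.00014). The other pair computed, Cldn3 and Cldn1, is given no value because Cldn1 was below detection in the mutants. In both reported pairs the genes changed unequally within arrays. The change of a ratio is the difference between the changes of its genes, which were already known from the same arrays. These p-values are thus no separate support for those changes.

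Cldn7 and Cldn23 are both known from intestinal epithelium, Cldn7 as a partner of Epcam that lies along the lateral membrane. Cldn7 ran from 8.73 to 9.31 in the controls, with a median of 8.87, and from 8.63 to 9.24 in the mutants, with a median of 9.02. These ranges overlapped almost fully, and the difference of 0.09 ± 0.09 (SE; 95% confidence interval -0.09 to 0.27) did not pass (limma adjusted p 0.548). Cldn23 rose. Its probe ran from 8.58 to 8.97 in the controls, with a median of 8.76, and from 8.59 to 9.39 in the mutants, with a median of 9.15. In 9 of 10 mutants it was above the control median, and 1 mutant lay at the bottom of the control range. The difference was 0.34 ± 0.08 (SE), or 1.27-fold (limma adjusted p 0.00397). The call was lost without the libraries with Hoxd10 and Car1 (0.18, adjusted p 0.324), with median scaling (0.25, adjusted p 0.12) and within the set of 11 arrays (0.29, adjusted p 0.175). The 6 mutants with Hoxd10 and Car1 had a Cldn23 mean of 9.23 and the other 4 a mean of 8.96, against 8.78 in the controls. The part of those libraries in the rise was not tested.

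Cldn5, the claudin of endothelial junctions and of the blood-brain barrier, ran from 6.93 to 7.74 in the controls, with a median of 7.55, and from 7.25 to 7.97 in the mutants, with a median of 7.65. The groups overlapped. The difference was 0.20 ± 0.10 (SE, with a 95% confidence interval of -0.02 to 0.41, limma adjusted p 0.206). With the set of arrays as a term it was 0.24 (limma adjusted p 0.0498). That set was found from these same values, so the term lowers the leftover spread by construction and its p-values can be too small. Calls over all genes rose from 2307 to 2835 with it, and Cldn5 is not counted as differing. Of 10 other endothelial markers 9 were tested and 0 passed the limma test, 1 of them (Emcn) having an unadjusted p under 0.05 (-0.23, p 0.0396, adjusted p 0.134). Their summed intensity ran from 2221 to 2887 in the controls and from 2087 to 3271 in the mutants.

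Cldn6, known from embryonic epithelia, was near the detection limit, with detection in 5 of 11 controls and 4 of 10 mutants. It ran from 4.56 to 5.44 in the controls, with a median of 5.07, and from 4.59 to 5.34 in the mutants, with a median of 5.03. The ranges were nearly the same, and the difference was -0.02 ± 0.12 (SE; 95% confidence interval -0.26 to 0.23, limma adjusted p 0.951). Cldn8, a barrier claudin of distal colon and kidney tubule, had 2 probes, and neither was detected on any of the 21 arrays. The lowest detection p-values of these probes were 0.108 and 0.188, and their raw intensities lay between 46.3 and 76.7. Cldn8 was therefore not tested. The 6 mutants with Hoxd10 and Car1 were among the arrays without Cldn8 detection.

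**Figure D2:**
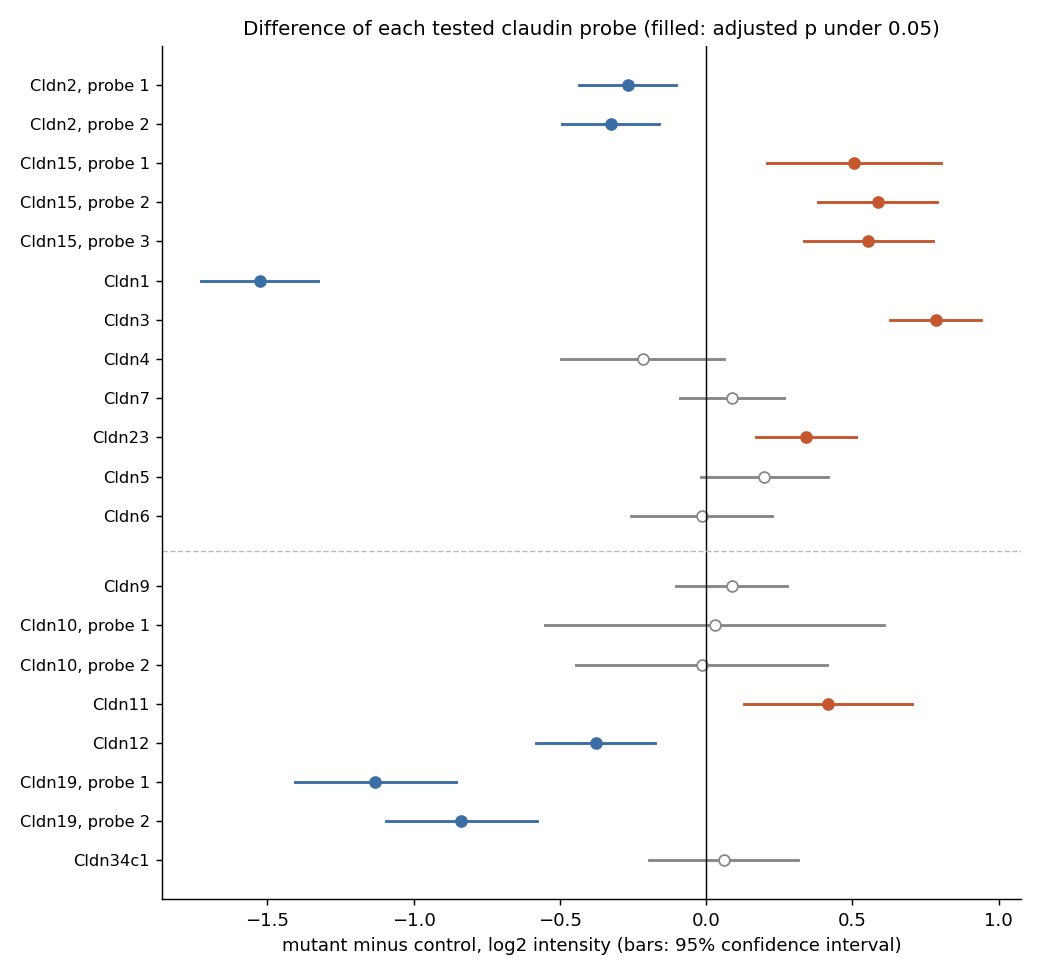
Mutant minus control difference in log2 intensity for each tested claudin probe, with 95% confidence intervals from the limma fit. The 10 chosen genes stand above the dashed line (Cldn8 is missing because it was not tested) and the other tested claudins below it. Filled points pass an adjusted p under 0.05. Cldn1 (-1.53) and Cldn19 (-1.13 and -0.84) lie furthest to the left and Cldn3 (0.78) furthest to the right.

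Of 14 further claudins on the array, 6 were tested, and 3 of these passed, where 23.2% of all tested genes did. Cldn19, known from kidney tubule and retinal pigment epithelium, fell. Its brighter probe ran from 6.59 to 7.48 in the controls, with a median of 6.85, and from 5.16 to 6.23 in the mutants, with a median of 5.81. The groups did not overlap. The difference was -1.13 ± 0.13 (SE), or 2.19-fold lower (limma adjusted p 7.5e-07). The second Cldn19 probe was detected in 10 of 11 controls and 0 of 10 mutants, at least 1.35-fold lower (measured means 5.56 and 4.72, adjusted p 2.25e-05). Without the libraries with Hoxd10 and Car1 the brighter probe fell by 0.95 (adjusted p 0.000341).

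Cldn12, which lacks the PDZ-binding end of most claudins, was lower by a difference of -0.38 ± 0.10 (limma adjusted p 0.00671). With those libraries left out it was -0.34 (adjusted p 0.108). Cldn11, a claudin of myelin and of Sertoli cells, passed at 0.42 ± 0.14 (adjusted p 0.0344). Without the libraries with Hoxd10 and Car1 Cldn11 was at 0.03 (adjusted p 0.94). Within the sets of 10 and 11 arrays Cldn11 was at 0.39 (adjusted p 0.148) and 0.40 (adjusted p 0.274), and its call held in 11 of 21 fits that left out 1 library. Cldn9, Cldn10 and Cldn34c1 did not pass, at 0.09 ± 0.09, 0.03 ± 0.28 and 0.06 ± 0.12 (SE). The remaining 8 claudins were not tested, 7 of them without detection on any array and Cldn14 with detection in 2 controls. Claudin probes can read relatives of like sequence, and probe sequences were not used here to check this.

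**Figure D3:**
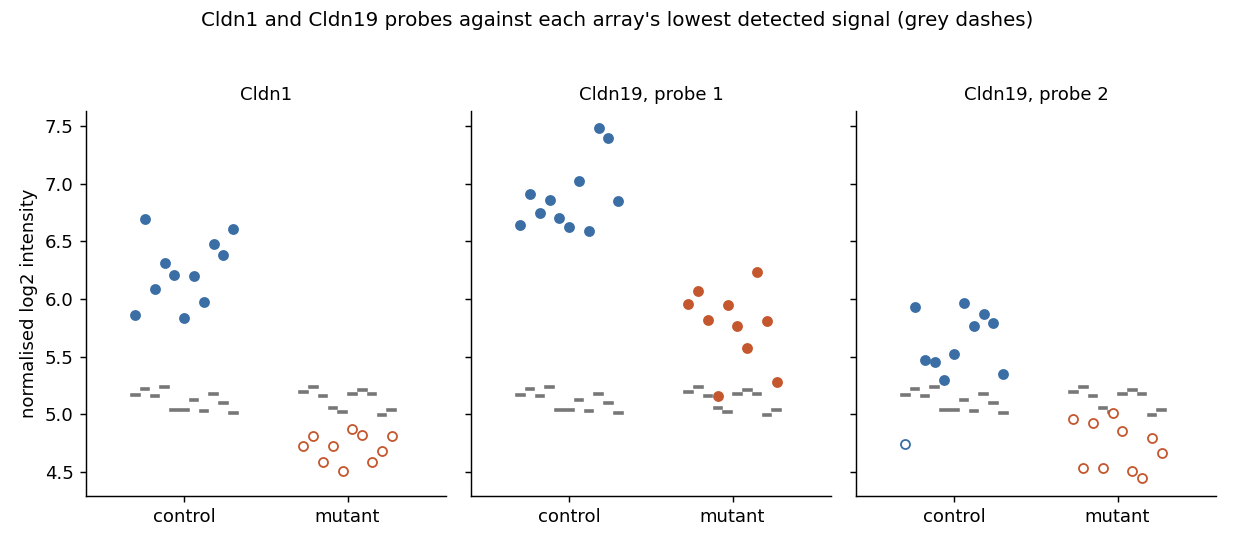
Normalised log2 intensity of the Cldn1 probe and both Cldn19 probes on each array (points, control n = 11 and mutant n = 10), with a grey dash at the lowest signal among detected probes of the same array. Filled points are detected and open points are not. Cldn1 and the second Cldn19 probe are open in all 10 mutants, while the first Cldn19 probe is detected on all 21 arrays and has no overlap between groups.

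A list of 45 other genes of tight junction membrane proteins, plaque scaffolds and polarity complexes had 43 on the array, of which 31 were tested. Of these, 1 rose, 5 fell and 25 did not pass the limma test, with a median difference of -0.0063, beside 0.0115 over all tested genes. These 6 calls among 31 genes are near the 23.2% called among all genes. Among 10 tested membrane partners 4 were called lower, where 12.6% of all genes were, and 1 of these calls, Igsf5, held both without the 6 libraries and within each set. Igsf5, an adhesion molecule of the JAM family found in intestine and kidney, fell from 9.71 ± 0.13 to 9.27 ± 0.18 (SD), a difference of -0.44 ± 0.07 (SE, adjusted p 6.37e-05) with no overlap. F11r (JAM-A) gave -0.53 ± 0.18 (adjusted p 0.0412), Cxadr, the coxsackievirus and adenovirus receptor, -0.21 ± 0.06 (adjusted p 0.0092), and Marveld3, a relative of occludin, -0.19 ± 0.07 (adjusted p 0.0466). The calls of F11r and Marveld3 held in 10 and 6 of 21 fits that left out 1 library, and a second Marveld3 probe gave 0.04 (adjusted p 0.88). Without the 6 libraries F11r was at -0.73 (adjusted p 0.062) and Marveld3 at -0.12 (adjusted p 0.561). Within the sets of 10 and 11 arrays F11r was at -0.42 (adjusted p 0.314) and -0.60 (adjusted p 0.167), and Marveld3 at -0.14 (adjusted p 0.442) and -0.22 (adjusted p 0.158). Cxadr was at -0.09 without the libraries with Hoxd10 and Car1 (adjusted p 0.5) and at -0.12 within the set of 10 arrays (adjusted p 0.392). On all arrays its 2 other tested probes gave -0.31 (adjusted p 0.000808) and -0.44 (adjusted p 0.253).

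Among 10 tested scaffolds, Ybx3, a transcription factor that binds the scaffold protein ZO-1, rose by 0.40 ± 0.09 (limma adjusted p 0.00274). Its 2 other tested probes gave 0.19 (adjusted p 0.0796) and 0.04 (adjusted p 0.882). Within the set of 11 arrays Ybx3 was at 0.37 (adjusted p 0.0841). None of the others passed, Tjp1, which encodes ZO-1, being at 0.08 ± 0.12 (adjusted p 0.724). Among 11 polarity and signalling genes Prkcz, an atypical protein kinase C, fell by 0.24 ± 0.07 (adjusted p 0.0135). Of its other tested probes, 1 gave -0.23 (adjusted p 0.0196) and 1 gave -0.0036 (adjusted p 0.982). Without the libraries with Hoxd10 and Car1 Prkcz was at -0.20 (adjusted p 0.225), and only Igsf5 of the 5 falls was still called. Within the sets of 10 and 11 arrays Prkcz was at -0.23 (adjusted p 0.0845) and -0.28 (adjusted p 0.105). Occludin (Ocln), the first tight junction membrane protein to be named, was at -0.21 ± 0.08 (adjusted p 0.0638).

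Of 15 genes that bind, cleave or regulate claudins in epithelium, 11 were tested and only Prss8 passed the limma test. Prss8 encodes prostasin, a membrane-anchored serine protease that works with matriptase (St14). It fell from 9.56 ± 0.17 to 8.98 ± 0.22 (SD), a difference of -0.58 ± 0.09 (SE, adjusted p 1.9e-05), and its second probe gave -0.74 (adjusted p 1.07e-09). All 10 mutants lay under the control median of Prss8, though the groups overlapped. St14 itself was at 0.06 ± 0.06 (adjusted p 0.603). The adherens junction genes Cdh1 and Ctnnb1 were at -0.0048 (adjusted p 0.979) and -0.16 (adjusted p 0.125). The gut transcription factors Hnf4a, Cdx1 and Cdx2 were at -0.01 (adjusted p 0.97), 0.08 (adjusted p 0.714) and 0.11 (adjusted p 0.794), and Grhl2, Snai1, Snai2 and Wnk4 lay between -0.12 and 0.20, none past the threshold. Epcam, which binds Cldn7, and Lnx1 were not detected on any array, though Cdh1 was detected on all 21. Whether the Epcam and Lnx1 probes read their transcripts was not checked, so this does not show that the genes are silent in the tissue.

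**Figure D4:**
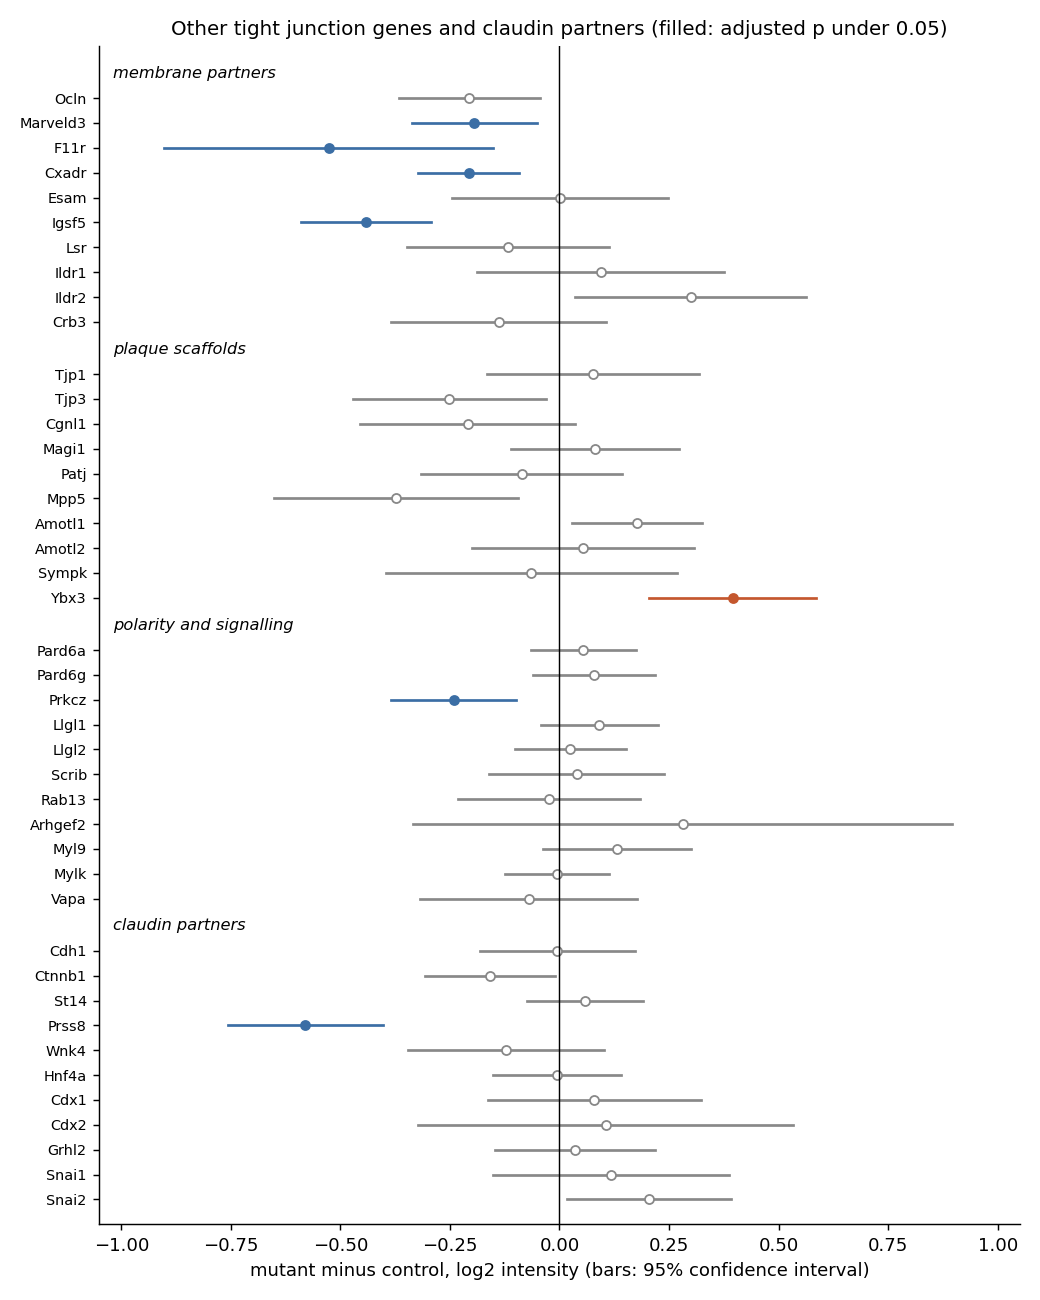
Mutant minus control difference in log2 intensity of 31 tested tight junction genes and 11 tested claudin partners, by role, with 95% confidence intervals from the limma fit. Filled points pass an adjusted p under 0.05. Most intervals cross 0, and the filled points furthest to the left are Prss8 (-0.58), F11r (-0.53) and Igsf5 (-0.44).

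Claudins also varied between the arrays of a group. Over the 12 tested probes the standard deviation within a group ran from 0.12 to 0.36. The lowest was that of Cldn1 in the mutants, where the probe was below detection, so it is a spread of values under the detection threshold. The highest was that of the brightest Cldn15 probe in the mutants. After each group's mean was subtracted, Cldn4, Cldn5 and Cldn7 were lower in the set of 11 arrays than in the set of 10, by -0.33, -0.27 and -0.27, and Cldn2 was higher by 0.17. For Cldn15 the 3 probes disagreed, at 0.27, -0.13 and 0.06. The difference between mutants and controls was not found to depend on the set for any of the 12 tested claudin probes (limma interaction, adjusted p 1 for each). The interaction ran from -0.16 for the brighter Cldn2 probe to 0.27 for Cldn4.

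For each tested claudin the gene with the most similar pattern was sought among all tested genes, by Pearson correlation over the 21 arrays after each group's mean was subtracted. Arrays share their set and their normalisation, and the values are a description. Cldn5 went with Cxcl12 (r 0.903, Spearman rho 0.817), Cldn7 with Cttn (r 0.886, rho 0.881) and Cldn2 with Ipo8 (r 0.865, rho 0.775). Cldn4 went with Ralb (r 0.857, rho 0.862) and Cldn3 with Kcnk6 (r 0.812, rho 0.862). For Cldn6, Cldn15, Cldn23 and Cldn1 the most similar genes were Try5 (r 0.784), Exoc1 (r 0.765), Ska3 (r 0.753) and Lrrn1 (r 0.746). Within the set of 10 arrays the r of Cldn2 with Ipo8 was 0.276 and within the set of 11 it was 0.916, while that of Cldn5 with Cxcl12 was 0.843 and 0.878. Each of these genes has the highest r among 9961 tested genes, and no level of r to be met without any relation was computed. That the 9 claudins had different nearest genes therefore carries no conclusion. Cldn1 was detected on 11 arrays and Cldn6 on 9, so background enters their r.

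Some markers of other cell types differed between the groups, where 23.2% of all tested genes did. The lists of endothelium, pancreas, mesenchyme, stomach and squamous epithelium were under that share, and most lists are short. The part of these cell types in the claudin results was not tested. Small intestinal epithelium was present, with 8 of 10 markers tested, 2 higher (Vil1 by 0.64 and Anpep by 0.84) and 1 lower (Mttp, -0.38). Fabp1 and Fabp2 were not detected on any array, and whether their probes read the transcripts was not checked. The summed intensity of the 8 tested epithelial markers ran from 95320 to 103400 in the controls and from 81300 to 106000 in the mutants. Apoa1 and Apoa4, by far the brightest of them, make up most of this sum. Both had the same highest value, 15.41, in both groups, so the sum is no measure of the amount of epithelium. All 4 tested leukocyte markers of 5 were lower (sums 1843 to 2379 against 908 to 1638), as were 2 of 4 tested liver markers of 7 (1851 to 5620 against 536.6 to 1014), with Alb, Fgb and Apoh not detected on any array. Of 3 tested mesothelium markers of 7, Upk3b was lower and Msln higher (sums 575.7 to 910.5 against 391.5 to 646.9). Of 6 tested colon markers 2 were higher and 1 lower (sums 565.9 to 4866 against 382.2 to 3593), and of 6 mesenchyme markers 1 was higher (25640 to 36380 against 27550 to 40330). Of 2 tested enteric nervous system markers 1 was lower (464.3 to 624.9 against 372.3 to 472.4), and of 6 pancreas markers 1 was lower (920.3 to 12820 against 284.8 to 25400). Of 2 stomach and 1 squamous epithelium markers 0 passed the limma test, with 1 of these 3 at an unadjusted p under 0.05. Cldn18, a stomach claudin, was not detected on any array.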

How the data were processed

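Total RNA of each intestine was converted to biotin-labelled cRNA and read on 1 array, per the labels' protocols. The deposited table of raw values gives 1 intensity per probe and array, beside a detection p-value that the authors' software took from control beads, with GenomeStudio 2009.2 per the submitters' processing notes. The processed intensity values, also deposited, followed each array's raw values along a straight line (scale 0.754 to 1.38, largest residual 0.0112), and no source used here names the method. All 21 columns were matched to samples by title. That replicates are separate embryos rests on the labels, so p-values measure the spread between these samples.

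Raw intensities went through the neqc step of limma 3.58.1 (R 4.3.3), that is normexp background correction from the detection p-values, an offset of 16, quantile normalisation and log2. Dim probes' fold changes are shrunk towards 1 by this offset. Probes with a detection p-value under 0.01 on at least 5 of 21 arrays entered 1 fit (lmFit, eBayes) of genotype alone, and p-values were adjusted over all of them by Benjamini-Hochberg. The tested probe with the highest mean stood for a gene. The fit was tested on simulated data. Where no array of a group detected a probe, the bound sets the brighter group's mean against a dim group whose arrays are each raised to their lowest detected signal, if the probe lies under it, before averaging. Gene names come from the platform annotation. Alternatives changed the scaling, background correction, detection filter, probe choice, value table, block and libraries. The number of arrays limits the precision.

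The named genes were all 10 claudins, every other tested claudin, up to 4 called genes of largest absolute difference from each tight junction group (or the 2 of smallest p), all listed claudin partners, the most similar gene of each claudin, and Sis and Prdm1. Ocln, Tjp1, and the markers named were chosen after their values were seen. The members and lists were chosen with earlier results of these data known. Replicate numbers did not pair samples: over 10 pairs the correlation of deviations ran from -0.252 to 0.297.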

Additional observations from a re-analysis of the deposited data

How the results depend on the processing

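Over 33 alternatives none of the chosen claudins changed its direction while called, and Cldn1 (-1.87 to -0.80, adjusted p at most 5.53e-05) and Cldn3 (0.66 to 0.82, adjusted p at most 0.000584) passed in every one that gave a value. No fit that left out 1 library changed the call of any of the 10 chosen claudins: 3 stayed higher and 2 lower. The tight junction list had 1 to 2 genes higher (2 without mutant 1 or 2) and 3 to 6 lower in those fits (3 without control 11 or mutants 2, 4, 5 or 9). With median scaling 1 claudin was called higher and 3 in all, with Cldn15 at 0.42 (adjusted p 0.0509) and Cldn23 at 0.25 (adjusted p 0.12). That scaling moved the median of all genes from 0.0115 to -0.0437. With no detection filter the list had 3 genes lower, and with the mean of all tested probes it had 2 higher. With no filter Cldn8 was also fitted, and with detection required on 10 arrays Cldn6 was not tested.

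The following settings were chosen after seeing the data, and the cause of each change was not tested. Without the 6 libraries with Hoxd10 and Car1, which also leaves 4 mutants, 1258 genes were called, 1 claudin lower, 3 in all and 1 list gene lower, with Cldn2 at -0.23 (adjusted p 0.206) and Cldn23 at 0.18 (adjusted p 0.324). With the set of arrays as a term 2835 genes were called, the list had 2 genes higher and 8 lower, and Cldn5 reached 0.24 (adjusted p 0.0498). The set was found from these same values, so p-values under that term can be too small. Within the set of 10 arrays 1382 genes were called, 1 claudin lower, 3 in all and 1 list gene lower, with Cldn2 at -0.21 and Cldn15 at 0.51. Within the set of 11 arrays 1222 genes were called, 1 claudin higher, 1 lower, 2 in all and 2 list genes lower, with Cldn2 at -0.37, Cldn15 at 0.43 and Cldn23 at 0.29.

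Replicate numbers do not pair the samples, and no array correlated best with its own number. With the replicate block over 10 numbers, 2003 genes were called, against 2130 for the same samples unpaired (in which 3 list genes were lower), and Cldn3, Cldn15 and Cldn23 were higher and Cldn1 and Cldn2 lower. Cldn11 was at 0.39 under the block (adjusted p 0.119), F11r at -0.44 (adjusted p 0.13) and Marveld3 at -0.17 (adjusted p 0.104). Cldn1 in the mutants, Cldn6 and Cldn8 were limited by signal over background.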
